A study of Arabidopsis thaliana with 6 samples.

Results

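Root hairs are tubular outgrowths of epidermal cells that enlarge the surface through which roots take up phosphate, and Arabidopsis makes more and longer hairs when phosphate is scarce. A hair grows only at its tip, where expansins loosen the wall, structural glycoproteins rich in proline rebuild it, and a reactive oxygen and lipid signalling module marks the growing point. The 8 genes described here act in these steps: the alpha-expansins EXPA7 and EXPA18, the leucine-rich repeat extensins LRX1 and LRX2, the proline-rich proteins PRP1 and PRP3, the phosphatidylinositol transfer protein COW1 and the NADPH oxidase RHD2, also called RBOHC. They were chosen by gene identifier for this known role, and all 8 were found among the 33602 genes of the deposited table.

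The samples were roots of seedlings aged 8 days of Arabidopsis thaliana, ecotype Col-0. The groups were phl2 seedlings without phosphate (phl2 P-, replicates 5 and 6), wild type without phosphate (WT P-, replicates 3 and 4) and wild type with phosphate (WT P+, replicates 1 and 2). PHL2 belongs to the MYB factors and is a relative of PHR1, which activates phosphate starvation genes. Neither the phl2 allele nor the number of plants per library is given in the sources used here. Since phl2 roots with phosphate were not analysed here, a general difference of the mutant and a difference in its starvation response cannot be told apart. Whether replicates came from separate cultures is not labelled, and the spread behind each p-value may be technical. Levels are given as RPKM, in which read numbers are divided by gene length and by library size. Since the roots are whole organs, fewer hair cells and less RNA per hair cell cannot be told apart.

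Some facts of the series bear on every value. About 616000 to 913000 reads lay behind the table in each library, 5.44% to 9.07% of the reads by which the authors' values appear to be divided. The strand that was counted is not given, and reads of a gene and of antisense transcription cannot be told apart. The phl2 columns held equal reads in 81.0% of the genes above 0, and replicate 6 was higher in 0 genes, so their difference was below sampling noise and their mean was counted as 1 sample. With no spread to measure for phl2, the spread of wild type stood in for it. PHL2 itself (AT3G24120) was at 1.04 and 0.934 RPKM in the phl2 columns, 2.14 and 2.24 in WT P- and 1.65 and 2.37 in WT P+ (phl2 P- against WT P-, log2 difference -0.68 ± 0.22, adjusted p = 0.055, limma with Benjamini-Hochberg adjustment). On the rescaled table described next it was -0.25 ± 0.24 (adjusted p = 0.62), so the label was not checked by a called change of this gene. Most genes moved together between libraries: the median of the 11463 genes tested was 0.33 higher in WT P- than in WT P+ on the log2 scale, and that of phl2 P- against WT P- was -0.48. A rescaled table was therefore tested too, in which every sample was divided by its median ratio to the others, which brought these medians to 0.0 and -0.01.

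Of the 8 genes 5 lie on chromosome 1. LRX1 (AT1G12040, 4069992 to 4072681) and EXPA7 (AT1G12560, 4276505 to 4277969) start 206.5 kb apart, and LRX2 (AT1G62440, 23112933 to 23115293) and EXPA18 (AT1G62980, 23331563 to 23333246) start 218.6 kb apart. PRP1 (AT1G54970) lies at 20504901 to 20506504 of the same chromosome, PRP3 on chromosome 3 (AT3G62680, 23182722 to 23184042), COW1 on chromosome 4 (AT4G34580, 16515102 to 16518746) and RHD2 on chromosome 5 (AT5G51060, 20757199 to 20762461, minus strand). All coordinates are on TAIR10.1 with RefSeq gene models. The models have 1 exon in LRX1 and LRX2, 2 in PRP1 and PRP3, 3 in EXPA7 and EXPA18, 11 in RHD2, and 13 blocks of merged exons in COW1. Exons of another gene lie opposite to 3.7% of the exons of EXPA18 and 2.1% of those of EXPA7, and opposite to 0.0% in the other 6.

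The upstream sequences of the 6 wall genes share a short run of letters. The root hair element, known from the EXPA7 promoter of Arabidopsis and bound by the bHLH factor RSL4, was searched for by its core, which is TG, then 3 or 4 bases of any kind, then GCACG or TCACG, on both strands of the 500 bases before each annotated transcript start. All 6 wall genes had a match, COW1 and RHD2 had none, and 7.54% of the 27443 windows of protein-coding genes on the nuclear chromosomes had one. The element was described from promoters of root hair genes, EXPA7 among them, so the match in EXPA7 was known in advance and the count is not independent of the choice of genes. These stretches are shown because they are what the wall genes have in common. Each line gives 5′ to 3′ the strand of the gene, which is the plus strand in all of them, with the match in capitals; where it begins with CG, the core is read on the opposite strand.
EXPA7, chr1:4276239-4276288: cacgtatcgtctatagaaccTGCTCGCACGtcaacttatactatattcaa
EXPA7, chr1:4276411-4276461: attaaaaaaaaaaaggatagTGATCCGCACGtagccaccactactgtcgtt
EXPA18, chr1:23331507-23331556: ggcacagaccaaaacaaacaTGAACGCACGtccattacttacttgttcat
LRX1, chr1:4069725-4069774: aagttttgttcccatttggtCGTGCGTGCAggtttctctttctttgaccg
LRX1, chr1:4069881-4069930: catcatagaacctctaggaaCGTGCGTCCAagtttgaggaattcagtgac
LRX2, chr1:23112658-23112708: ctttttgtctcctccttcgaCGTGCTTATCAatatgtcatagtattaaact
PRP1, chr1:20504754-20504804: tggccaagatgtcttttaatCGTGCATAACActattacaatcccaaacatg
PRP3, chr3:23182537-23182587: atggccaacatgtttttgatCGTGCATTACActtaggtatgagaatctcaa

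EXPA7 and LRX1 carried a pair of matches each and the other four carried 1. They began between 36 and 255 bases before the transcript start, on the gene's strand in both expansins and on the opposite strand in the LRX and PRP genes. The RefSeq model of LRX2 begins at its start codon, so its window lies before that codon. P1BS is the site of PHR1 and its relatives (G, 1 base of any kind, ATAT, 1 base of any kind, C, the same on both strands). It matched in 0 of the 8 windows against 10.7% of all windows, and the G-box CACGTG in 0 against 9.35%. With only 8 windows, 0 is near these shares. A G-box can overlap the end of the root hair element core. Among 18 other root hair wall genes, 6 had the root hair element core (33.3%), among 26 other tip growth genes 2 (7.69%), and among 17 other alpha-expansins 0. P1BS matched in 4 (22.2%), 3 (11.5%) and 4 (23.5%) genes of these lists, and in 4 of 7 other LRX and PRP genes (57.1%). A match is a run of letters and does not show that a factor binds there, nor does its lack show the opposite.

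**Figure D1:**
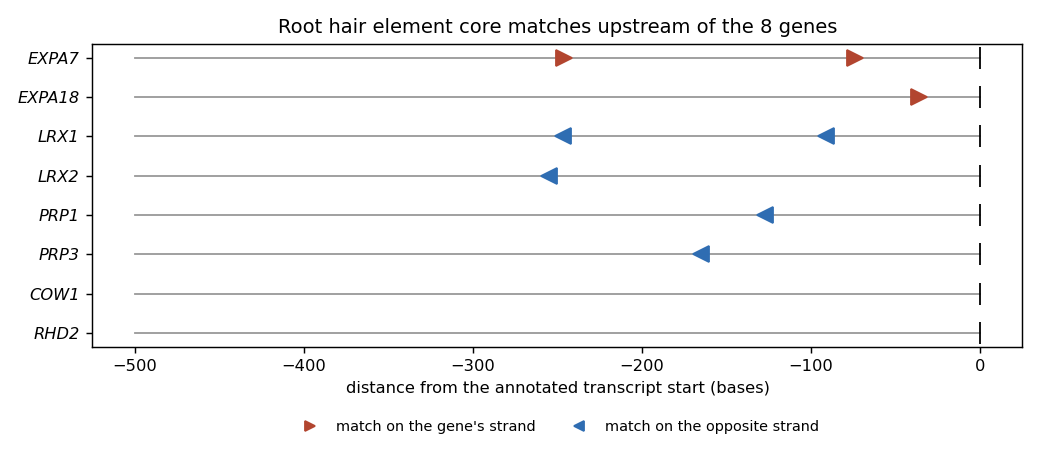
Positions of root hair element core matches in the 500 bases before the annotated transcript start (short vertical line at 0) of the 8 genes; the x axis is the distance from that start in bases, and arrowheads give the strand. The 6 wall genes have 1 or 2 matches each between 36 and 255 bases before the start, and COW1 and RHD2 have none.

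Phosphate deficiency in wild type raised all 8 genes. Their log2 changes ran between 0.67 and 1.76 with a median of 1.12, against 0.33 for all tested genes, and the mean level in WT P- was 2.32 to 4.73 times that in WT P+. Called higher were 8 of 8 genes, against 28.0% of all tested genes (limma on log2(RPKM + 1), two-sided, adjusted p under 0.05). After rescaling, the 6 wall genes were called and COW1 and RHD2 were not, so 6 of 8 passed against 8.1% of tested genes, with a median change of 0.74 against 0.0. None was called lower, against 4.45% of tested genes as deposited and 11.7% after rescaling. Every WT P- library was above every WT P+ library in all 8 genes, as in 62.1% of tested genes.

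The proline-rich proteins, which are thought to be cross-linked into the hair wall, had the largest changes relative to their WT P+ level. PRP3 stood at 8.33 and 8.30 RPKM in WT P- libraries, against 1.81 and 1.71 RPKM in WT P+ libraries. Both deficient libraries held nearly the same level, 4.73 times the mean with phosphate. Its log2 change was 1.76 ± 0.14 (SE; adjusted p = 0.00017, limma), and 1.34 ± 0.12 after rescaling (adjusted p = 0.0015). PRP1 stood at 4.91 and 3.94 RPKM in WT P-, against 1.44 and 0.875 RPKM in WT P+. The deficient libraries did not overlap those with phosphate, and the log2 change was 1.34 ± 0.19 (adjusted p = 0.002, limma), or 0.98 ± 0.14 after rescaling. In these genes 98 and 106 reads (PRP3) and 62 and 54 reads (PRP1) lay behind the WT P- values, against 20 and 20 and 17 and 11 in WT P+.

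LRX1 and LRX2 encode chimeric wall proteins, a leucine-rich repeat domain that binds signalling peptides joined to an extensin domain anchored in the wall, and act together in Arabidopsis root hairs. LRX1 was the most abundant of the 8 per length in every library. It stood at 10.03 and 9.51 RPKM in WT P-, against 2.65 and 2.66 RPKM in WT P+, a log2 change of 1.56 ± 0.14 (adjusted p = 0.00025, limma) and 1.13 ± 0.12 after rescaling. Its value rests on 246 and 253 reads in WT P- and 61 and 65 in WT P+, the best-counted of the set. LRX2 was lower in each library, at 3.13 and 3.55 RPKM in WT P-, against 1.37 and 1.13 RPKM in WT P+. Its log2 change was 0.95 ± 0.16 (adjusted p = 0.0051, limma), and 0.60 ± 0.13 after rescaling (adjusted p = 0.025).

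Alpha-expansins loosen the wall without cutting its polymers, and EXPA7 and EXPA18 are the members of this family known for their expression in hair cells. EXPA7 stood at 5.79 and 4.98 RPKM in WT P-, against 2.36 and 1.45 RPKM in WT P+. Its libraries did not overlap, and the log2 change was 1.15 ± 0.19 (adjusted p = 0.0043, limma; 0.76 ± 0.14 after rescaling). EXPA18 stood at 5.57 and 3.67 RPKM in WT P-, against 1.91 and 1.30 RPKM in WT P+. This was the widest spread between WT P- libraries among the 8 genes (4.62 ± 1.35 RPKM, SD, n = 2), and the log2 change was 1.10 ± 0.21 (adjusted p = 0.0077, limma; 0.72 ± 0.16 after rescaling).

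The genes of the signalling module at the tip had the smallest changes and the lowest levels, on a scale that understates changes of low genes. The gap to the wall genes was narrow otherwise. With a pseudocount of 0.1, RHD2 and COW1 changed by 1.23 and 1.30, beside 1.35 for LRX2. As ratios of mean RPKM the changes were 2.32 and 2.55, beside 2.68 for LRX2. RHD2 makes the superoxide that feeds the calcium gradient of the tip. It stood at 2.42 and 2.08 RPKM in WT P-, against 1.34 and 0.599 RPKM in WT P+, with the WT P+ libraries more than 2-fold apart at 40 and 19 reads. The log2 change was 0.75 ± 0.21 (adjusted p = 0.031, limma), and after rescaling 0.45 ± 0.17 (adjusted p = 0.12). COW1, which supplies phosphoinositides to the tip membrane, stood at 1.55 and 1.43 RPKM in WT P-, against 0.806 and 0.362 RPKM in WT P+. Only 21 and 10 reads lay behind the WT P+ values, whose 95% exact Poisson intervals reached from 0.499 to 1.23 and from 0.173 to 0.665 RPKM and cover counting error only. The log2 change was 0.67 ± 0.18 (adjusted p = 0.028, limma), and after rescaling 0.42 ± 0.15 (adjusted p = 0.11). In both genes replicate 1 of WT P+ was the higher one, and the WT P- libraries lay above it.

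The change stayed above 0 in each of the 11 or 12 alternatives fitted gene by gene. Since every WT P- library was above every WT P+ library, only alternatives that changed the scaling could have turned its sign. The number of genes that passed the test varied with the library left out. Whether the library itself or the loss of a sample lay behind this was not tested. Apart from rescaling, the share of all tested genes called under an alternative is not given here. Without replicate 2, 3 or 4 the count of genes called higher was 5, 3 and 5, and without a filter on low values it was 2. PRP3 and LRX1 were called in all 12 alternatives, with adjusted p of at most 0.034 and 0.035.

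**Figure D2:**
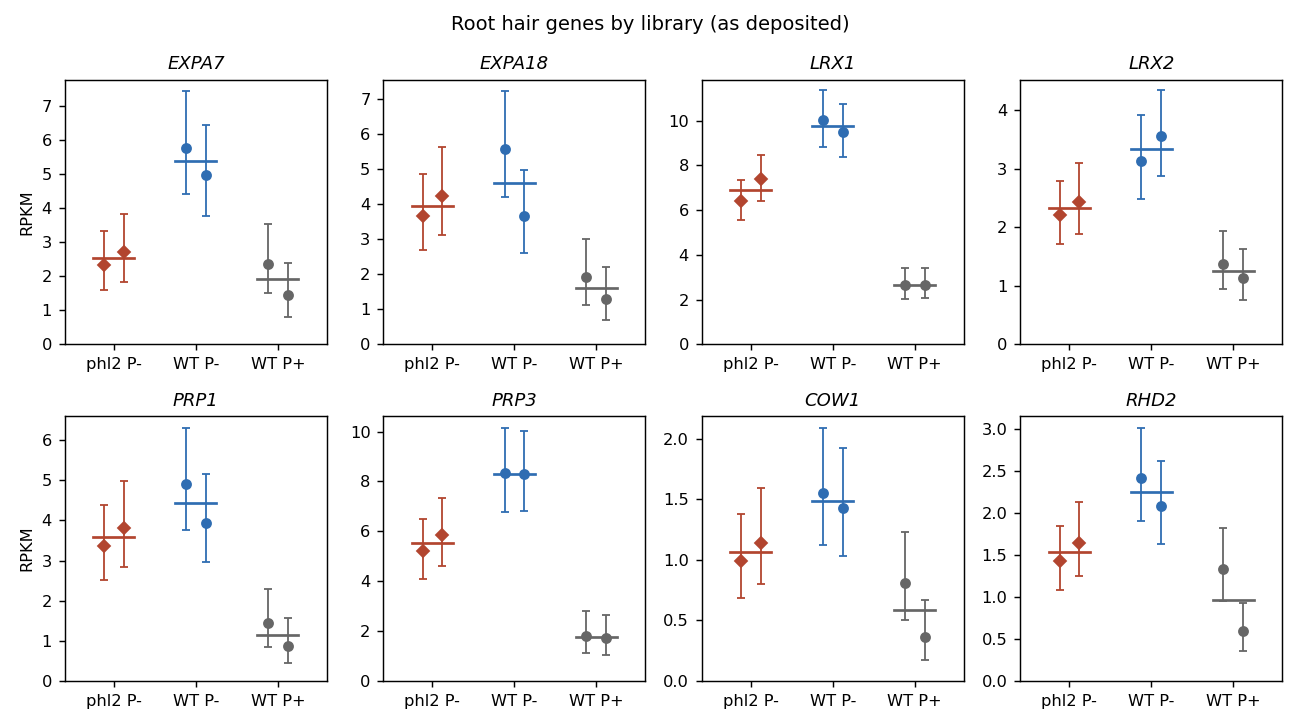
RPKM as deposited of each gene (y axis, from 0) in the phl2 P- columns (diamonds), WT P- and WT P+ libraries (circles); error bars are 95% exact Poisson intervals of the reads behind a value and cover counting error only, and horizontal lines are means of 2 columns. All 8 genes are higher in WT P- than in WT P+, and the phl2 columns lie below both WT P- libraries in 7 of 8 genes, EXPA18 being the exception.

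Under deficiency, 7 of 8 genes had lower values in both phl2 columns than in either wild-type library, as did 83.4% of tested genes. The phl2 mean was 46.9% of the WT P- mean for EXPA7 and 66.4% to 85.5% for the other seven. As deposited, only EXPA7 was called lower, 1 of 8 against 19.5% of tested genes (limma, adjusted p under 0.05), and 0 of 8 were called lower after rescaling, against 0.0174%. None was called higher, against 0.288% of tested genes as deposited and 0.0698% after rescaling. The median change of the 8 genes was -0.37, against -0.48 for all tested genes, so that 6 of 8 lay above the median of all genes. After rescaling the median was 0.15 against -0.01, and EXPA7 alone stayed below 0, while 48.8% of all tested genes lay above it. At an unadjusted p under 0.05, 3 of 8 genes passed as deposited, against 48.5% of tested genes, and 0 after rescaling, against 18.9%.

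EXPA7 stood at 2.34 and 2.71 RPKM in the phl2 columns, against 5.79 and 4.98 RPKM in WT P-. Both columns rest on the same 31 reads, and their 95% Poisson intervals (1.59 to 3.33 and 1.84 to 3.85 RPKM) lay below the intervals of replicate 3 (4.42 to 7.45) and, narrowly for replicate 6, overlapped that of replicate 4 (3.76 to 6.47). The log2 difference was -0.85 ± 0.23 (adjusted p = 0.045, limma), and 92.63% of tested genes had a larger value. After rescaling it was -0.28 ± 0.17 (adjusted p = 0.43), and the call was also lost after quantile normalization, without the filter on low values, with a pseudocount of 0.1 and without replicate 3, 4 or 5. The sign stayed negative in all 11 alternatives that tested it, with log2 differences between -1.06 and -0.28. Only rescaling and quantile normalization could have turned the sign. As deposited, both phl2 columns lay below both WT P- libraries, as in 83.4% of tested genes.

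EXPA18, its relative, stood at 3.66 and 4.24 RPKM in the phl2 columns, against 5.57 and 3.67 RPKM in WT P-. The groups overlapped, and the log2 difference was -0.16 ± 0.26 as deposited (adjusted p = 0.61, limma) and 0.43 ± 0.19 after rescaling (adjusted p = 0.29). Without replicate 3 it was 0.08 as deposited. The balance between the expansins does not depend on scaling, since both are measured in each library. EXPA7 held 31 of 78 reads of the pair in phl2 (39.7%, 95% exact Clopper-Pearson interval 28.8% to 51.5%), against 60 of 116 (51.7%, 42.3% to 61.1%) and 56 of 96 (58.3%, 47.8% to 68.3%) in WT P-. In WT P+ it held 56.1% and 53.6%. The phl2 share was the lowest, and its interval overlapped those of all wild-type libraries. This pair was singled out after its values were seen, and with 1 phl2 sample the difference was not tested.

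Coding sequences of the expansins were identical at 75.4% of 761 aligned bases. Their longest shared run was 21 bases, catggccgttaaaggtagccg (5′ to 3′), shown as the longest stretch that both hold without a mismatch. Whether reads were assigned to the wrong gene of a pair was not tested. LRX1 and LRX2 were identical at 78.2% of aligned bases with a longest run of 30, and PRP1 and PRP3 at 83.8% with a longest run of 33. The read length is not given in the sources used here.

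**Figure D3:**
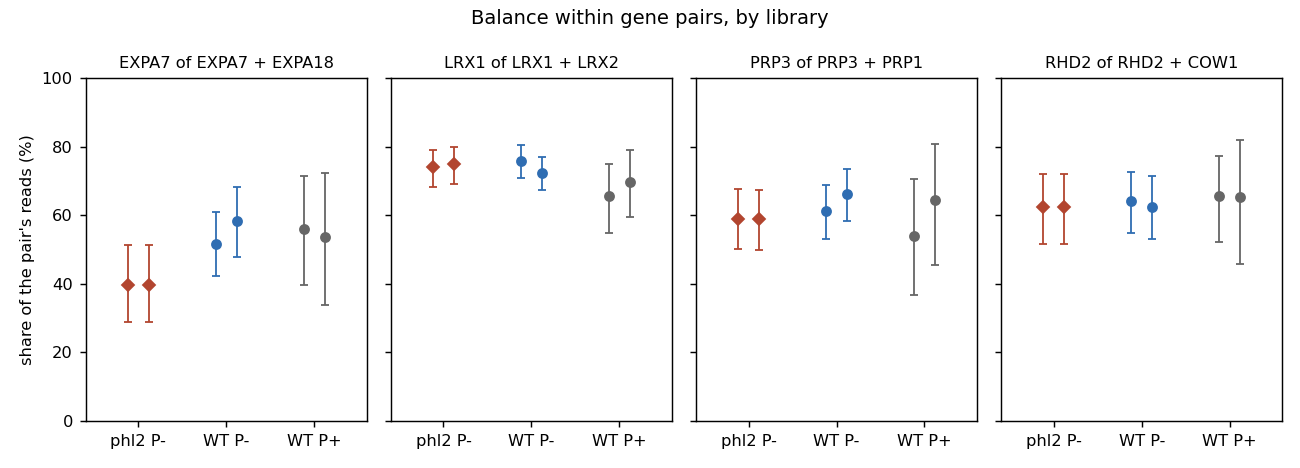
Share of a pair's reads held by its first gene (y axis, percent) in the phl2 P- columns (diamonds), WT P- and WT P+ libraries (circles), with 95% exact binomial intervals that cover counting error only. EXPA7 holds 39.7% of the expansin pair's reads in phl2 and 51.7% to 58.3% in the wild-type libraries.

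The LRX and PRP genes differed by between -0.24 and -0.51 in phl2 as deposited, against the median of -0.48 for all genes. LRX1 stood at 6.39 and 7.39 RPKM in the phl2 columns, against 10.03 and 9.51 RPKM in WT P-. Its log2 difference was -0.45 ± 0.17 (adjusted p = 0.074, limma) as deposited and 0.21 ± 0.15 after rescaling. LRX2 stood at 2.20 and 2.44 RPKM in phl2, against 3.13 and 3.55 RPKM in WT P-, with log2 differences of -0.39 ± 0.20 (adjusted p = 0.15, limma) and 0.15 ± 0.16. LRX1 held 74.1% and 74.9% of the reads of the LRX pair in the phl2 columns, against 75.9% and 72.5% in WT P- and 65.6% and 69.9% in WT P+. PRP3 stood at 5.19 and 5.85 RPKM in phl2, against 8.33 and 8.30 RPKM in WT P-, a log2 difference of -0.51 ± 0.17 (adjusted p = 0.06, limma) and of 0.13 ± 0.14 after rescaling. PRP1 stood at 3.35 and 3.80 RPKM in phl2, against 4.91 and 3.94 RPKM in WT P-, and differed by -0.24 ± 0.23 (adjusted p = 0.40, limma) and by 0.35 ± 0.17 after rescaling. PRP3 held 59.1% and 58.9% of the reads of the PRP pair in phl2, against 61.2% and 66.2% in WT P- and 54.1% and 64.5% in WT P+. The differences of these 4 genes were called neither as deposited nor after rescaling.

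RHD2 stood at 1.43 and 1.65 RPKM in phl2, against 2.42 and 2.08 RPKM in WT P-, and COW1 at 0.988 and 1.14 RPKM in phl2, against 1.55 and 1.43 RPKM in WT P-. Neither overlapped as deposited, and the log2 differences were -0.35 ± 0.26 for RHD2 and -0.27 ± 0.22 for COW1 (adjusted p = 0.28 and 0.34, limma). RHD2 held 62.4% of the reads of this pair in both phl2 columns, against 64.2% and 62.6% in WT P- and 65.6% and 65.5% in WT P+, with intervals that overlapped between all libraries. After rescaling, the phl2 sample lay above both WT P- libraries in 7 of 8 genes and below them in EXPA7. Of all tested genes, 39.1% lay above both and 41.3% below both.

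**Figure D4:**
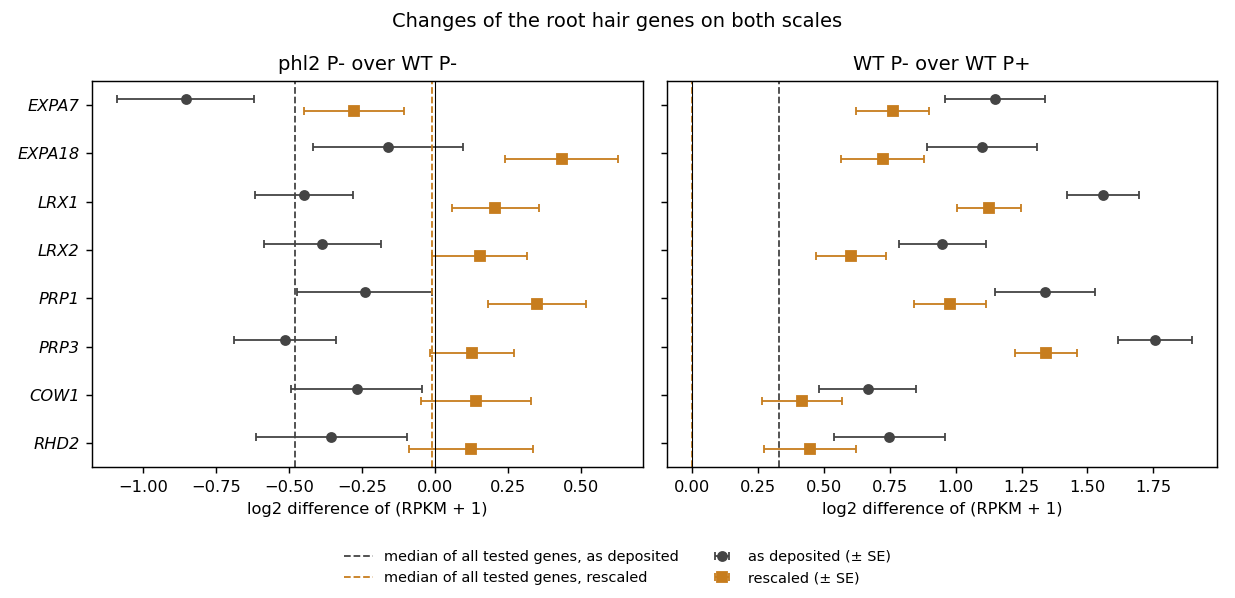
Log2 differences of log2(RPKM + 1), x axis, for each gene (± SE from limma) in phl2 P- over WT P- (left) and WT P- over WT P+ (right), as deposited (circles) and rescaled (squares); dashed lines are medians of all tested genes and the thin line is 0. In phl2, EXPA7 and, narrowly, PRP3 lie below the median of all genes as deposited and EXPA7 alone after rescaling, and in WT P- over WT P+ all 8 lie above it.

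Of the 8 genes, 3 were called higher in deficient phl2 roots than in wild-type roots with phosphate as deposited. This comparison shares its phl2 sample and its WT P+ libraries with the others and adds no separate evidence. The genes called higher were LRX1, PRP1 and PRP3, 3 of 8 against 2.54% of tested genes, with log2 differences of 1.11 ± 0.17, 1.10 ± 0.23 and 1.24 ± 0.17 (adjusted p = 0.0076, 0.026 and 0.0057, limma). After rescaling EXPA18 and LRX2 were called too, 5 of 8 against 5.18%. None was called lower, against 5.22% of tested genes as deposited and 5.15% after rescaling. Without replicate 2, 3 or 4 the count as deposited was 2 each time, and without the filter on low values it was 0. The share of all tested genes called is not given here for those alternatives. Both phl2 columns were above both WT P+ libraries in 7 of 8 genes, as in 18.8% of tested genes. In all 8 genes the mean as deposited was highest in WT P-, lower in phl2 P- and lowest in WT P+. Libraries overlapped between WT P- and phl2 for EXPA18 and between phl2 and WT P+ for EXPA7. The share of all tested genes with this order is not given here. The order depended on the scale, since after rescaling the phl2 sample lay above both WT P- libraries in 7 of 8 genes. EXPA7 was at 2.34 and 2.71 RPKM in phl2, against 2.36 and 1.45 RPKM in WT P+ (log2 difference 0.30 ± 0.23, adjusted p = 0.50, limma).

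Other root hair wall genes, from a list of 18, also rose under deficiency. Of 17 tested, 16 rose in WT P- against WT P+ and 1 was not called, beside 28.0% of all tested genes called higher, and 14 rose after rescaling, beside 8.1%. Their median change was 1.13, close to the 1.12 of the 8 genes. XTH14, a xyloglucan endotransglucosylase, stood at 13.1 and 10.3 RPKM in WT P-, against 2.93 and 1.93 RPKM in WT P+ (1.90 ± 0.19, adjusted p = 0.00041, limma). The extensin EXT12 stood at 13.8 and 12.8 RPKM in WT P-, against 4.29 and 3.51 RPKM in WT P+, and at 11.9 and 13.6 RPKM in phl2. Its log2 difference in phl2 P- against WT P- was -0.06 as deposited and 0.62 after rescaling, and was called on neither scale. The peroxidase RHS18 and the arabinogalactan protein AGP3 changed by 1.53 ± 0.18 and 1.32 ± 0.16 in WT P- against WT P+. EXT12 was not typical in phl2 P- against WT P-. There XTH14, RHS18 and AGP3 differed by -0.58, -0.55 and -0.51 as deposited, and by 0.08, 0.02 and 0.06 after rescaling. The median of the 17 genes was -0.51 as deposited and 0.08 after rescaling, against -0.48 and -0.01 for all tested genes. In phl2 against WT P-, 2 of 17 were called lower as deposited, against 19.5% of all tested genes, and 0 after rescaling, against 0.0174%.

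Other tip growth genes came from a list of 26. Of 20 tested, 8 rose in WT P- and 0 fell, with a median change of 0.41 against 0.33 for all tested genes, of which 28.0% were called higher. After rescaling 2 rose and 1 fell, against 8.1% higher and 11.7% lower of all tested genes. The proton pump gene HA7 stood at 3.52 and 3.19 RPKM in WT P-, against 1.23 and 0.624 RPKM in WT P+ (1.19 ± 0.20, adjusted p = 0.004, limma), and PIP5K3, a phosphoinositide kinase of the hair tip, changed by 0.83 ± 0.17. The actin gene ACT7 rose as deposited (0.75 ± 0.13) and was not called after rescaling (0.30, adjusted p = 0.13), and neither was the kinase gene IRE (0.67 ± 0.14 as deposited, 0.44 and adjusted p = 0.058 after rescaling). In phl2 8 of 20 were called lower as deposited, ACT7 among them, against 19.5% of all tested genes, and 0 after rescaling, against 0.0174%.

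Relatives of the 8 genes outside the hair-specific set differed among themselves. Of 10 other alpha-expansins tested, 6 rose in WT P- as deposited, beside 28.0% of all tested genes, and 2, EXPA1 and EXPA12, after rescaling, beside 8.1%. EXPA1 stood at 4.49 and 3.87 RPKM in WT P-, against 2.05 and 1.64 RPKM in WT P+. In phl2 against WT P-, 3 of the 10 were called lower as deposited, beside 19.5% of all tested genes, and 0 after rescaling, beside 0.0174%. EXPA1 and EXPA12 were among the 3 (-0.98 ± 0.20 and -0.90 ± 0.22, adjusted p = 0.04 and 0.042, limma). Of 4 other LRX and PRP genes tested, 1 rose and 1 fell, beside 28.0% higher and 4.45% lower of all tested genes. After rescaling 0 rose and 1 fell, beside 8.1% and 11.7%. In phl2 against WT P-, 3 of these 4 were called lower as deposited, beside 19.5% of all tested genes, and 0 after rescaling. AT4G18670 fell to 7.21 and 6.91 RPKM in WT P-, against 15.1 and 14.2 RPKM in WT P+ (-0.95 ± 0.13, adjusted p = 0.0016, limma), and was at 6.63 and 7.33 RPKM in phl2. Of 6 other NADPH oxidases tested, 2 rose, beside 28.0% of all tested genes, and 1 after rescaling, beside 8.1%. RBOHD, an oxidase of immune and wound signalling, was among the 2 (1.21 ± 0.15, adjusted p = 0.0011, limma). In phl2 against WT P- the median of the 6 was -0.48 as deposited and -0.11 after rescaling, against -0.48 and -0.01 for all tested genes.

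Of 15 root hair regulators, 7 were tested and 2, RHD6 and RSL2, rose as deposited, beside 28.0% of all tested genes. After rescaling RHD6 was called higher and RSL2 was not (adjusted p = 0.055). RHD6, the factor that starts a hair, stood at 1.43 and 1.90 RPKM in WT P-, against 0.152 and 0.358 RPKM in WT P+ (1.09 ± 0.17, adjusted p = 0.0031, limma), and at 0.503 and 0.581 RPKM in phl2 (-0.78 ± 0.21 against WT P-, adjusted p = 0.043, and not called after rescaling). RSL4, which drives hair growth, was below the level for testing, at 0.556 and 0.642 RPKM in phl2, 0.797 and 0.408 in WT P- and 0.094 and 0.089 in WT P+. GL2, which keeps non-hair cells hairless, stood at 1.34 and 1.11 RPKM in WT P-, against 1.82 and 2.02 RPKM in WT P+ (-0.39 ± 0.17, adjusted p = 0.094, limma), and was called lower after rescaling (adjusted p = 0.022). MYB66, the other non-hair marker used here, did not fall. It stood at 1.10 and 1.24 RPKM in WT P-, against 0.911 and 0.736 RPKM in WT P+ (0.25 ± 0.16, adjusted p = 0.23, limma), and changed by 0.005 ± 0.13 after rescaling.

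Markers of other cell types differed among themselves between the groups, and their part in the results was not tested. Their sums are given as deposited. On that scale the median log2 difference of all tested genes was 0.33 in WT P- against WT P+ and -0.48 in phl2 P- against WT P-. The sum of the non-hair markers GL2 and MYB66 was 2.02 and 2.21 RPKM in phl2, 2.44 and 2.35 in WT P- and 2.73 and 2.75 in WT P+. The 4 endodermis markers summed to 2.40 and 2.77 RPKM in phl2, 5.48 and 5.16 in WT P- and 4.81 and 3.62 in WT P+. They did not move alike. CASP1 and CASP2 were called lower in phl2 P- against WT P- as deposited and not after rescaling. SCR overlapped, at 0.81 and 0.936 RPKM in phl2 against 0.755 and 1.03 RPKM in WT P-. The 3 xylem markers summed to 3.91 and 4.52 RPKM in phl2, 6.35 and 5.78 in WT P- and 8.17 and 8.15 in WT P+. The 3 shoot markers RBCS1A, CAB1 and RCA summed to 1.79 and 2.07 RPKM in phl2, 9.27 and 7.21 in WT P- and 12.6 and 9.43 in WT P+. Of these, CAB1 alone had a higher mean in WT P- than in WT P+, 4.78 against 3.73 RPKM, and was not called. The 3 stele and phloem markers summed to 3.38 and 3.86 RPKM in phl2, 6.25 and 5.98 in WT P- and 4.46 and 2.97 in WT P+, so that they too were highest in WT P-. Cortex, root cap and quiescent centre markers stayed at or below 1.07 RPKM in sum in all libraries, and 0 markers were listed at 0 in every library.

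Genes whose level followed the mean of the 8 genes most closely were sought over the 5 samples after rescaling. Among 1465 eligible genes, the 5 named ones with the highest Pearson's r were GRP5, a glycine-rich protein (0.997), RFNR2, a root ferredoxin reductase (0.995), P40, a ribosomal protein (0.995), the glutamine synthetase GLN1.3 (0.994) and the root hair gene MRH6 (0.994). As deposited, GRP5 was at 4.26 and 4.92 RPKM in phl2, 6.70 and 5.82 in WT P- and 1.48 and 1.14 in WT P+. Its log2 difference in phl2 P- against WT P- was -0.374 as deposited and 0.245 on the rescaled values used for r. With 5 samples in 3 groups such values are a description, and 169 eligible genes had r over 0.95. Among the 8 genes themselves, r with their mean ran between 0.90 for EXPA7 and 0.99 for PRP1.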

How the data were processed

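Polyadenylated root RNA was sequenced from strand-specific dUTP libraries, per the labels' protocols. The deposited table gives RPKM for 6 columns, made by the authors. TopHat2, DESeq2 and the TAIR10 build are named, without versions or roles, per the submitters' processing notes. No counter or strand setting is given in the sources used here. The 8 genes, the gene lists and the naming rule (the 8 genes, up to 4 genes of each list by smallest p, and the 5 most alike) were chosen with earlier results of these data known.

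The most common ratio of values between libraries gave the relative worth of 1 read, and with it each of the 8 genes' values became whole reads (within 0.0002 read). These are the smallest whole numbers that fit; for PRP3 they were doubled, since this brought the implied length to 1173 bases beside 1221 annotated. Depth thus ran between 10 and 253 reads per value. RPKM are not counts, so no count model was used. The denominators of about 9420000 to 12800000 reads are approximate.

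limma 3.58.1 in R 4.3.3 fitted log2(RPKM + 1) of the 5 samples, with 1 mean per group and trended variances (2 residual and 6.3 prior degrees of freedom), over genes with at least 1 RPKM in 2 of 6 libraries. This scale understates changes of low genes. Rescaling used the median of ratios over tested genes (factors 0.994, 0.831, 1.359 and 1.223 for replicates 1 to 4 and 0.775 for phl2). Upstream and coding sequences came from the RefSeq TAIR10.1 genome, whose annotation matched 32827 genes, and were aligned with Biopython 1.88. Alternatives changed the scaling, pseudocount, filter, replicates and the treatment of the phl2 columns.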

Additional observations from a re-analysis of the deposited data

How the results depend on the processing

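The log2 change in WT P- against WT P+ stayed above 0 in all 8 genes under the 11 or 12 alternatives fitted gene by gene. The libraries did not overlap as deposited, so only alternatives that changed the scaling could have turned that sign. Shares of all tested genes called are given above for the deposited and rescaled values only. The other counts in this section therefore cannot be read as particular to the 8 genes. The number called higher, 8 as deposited, was 6 both rescaled and after quantile normalization and 7 with a pseudocount of 0.1. It was 4 of the 6 genes with no opposite-strand exon (rescaled; 2 genes left the test), 2 without the filter on low values, and between 3 and 8 when 1 replicate was left out. Rescaled and without 1 replicate, alternatives added after the data were examined, it was between 2 and 8.

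The number called lower in phl2 P- against WT P-, 1 as deposited, was 0 rescaled, 0 after quantile normalization, 0 for genes with no opposite-strand exon, 0 with a pseudocount of 0.1 and 0 without the filter, and between 0 and 3 without 1 replicate. The phl2 columns held equal reads in 81.0% of genes above 0. Fitting both as replicates lowered the standard error of EXPA7 from 0.23 to 0.17. With both phl2 columns as replicates the number called lower was 4, and 0 when these were rescaled. Rescaled and without 1 replicate it was 0 throughout. The change in phl2 turned its sign in 7 genes. Rescaled, it was 0.43 for EXPA18, 0.21 for LRX1, 0.15 for LRX2, 0.35 for PRP1, 0.13 for PRP3, 0.14 for COW1 and 0.12 for RHD2. After quantile normalization it was 0.32 for EXPA18, 0.10 for LRX2, 0.25 for PRP1, 0.18 for COW1 and 0.13 for RHD2. Among genes with no opposite-strand exon it was 0.27 for LRX1, 0.21 for LRX2, 0.41 for PRP1, 0.19 for PRP3, 0.18 for COW1 and 0.17 for RHD2. EXPA18 as deposited ran between -0.41 and 0.08 when 1 replicate was left out, with 0.08 without replicate 3. None of these was called.

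The number called higher in phl2 P- against WT P+, 3 as deposited, was 5 rescaled, 5 after quantile normalization, 4 for genes with no opposite-strand exon, 0 without the filter and 5 with both phl2 columns as replicates (8 when rescaled). Without 1 replicate it was between 2 and 3, and rescaled between 4 and 8. The cause of these changes was not tested. The phl2 columns differ in scale by 1.156 times, which enters when replicate 5 or 6 is left out.

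No paired analysis was possible because no replicate number occurs in more than 1 group. Depth limits the WT P+ values most, which rest on 10 to 65 reads each.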
